A study of Mus musculus with 12 samples.

Results

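The 54 genes described here encode chemokines, the small secreted proteins that direct the movement of leukocytes, and the receptors that read them. They were chosen by symbol, as every listed gene whose name starts with a chemokine or chemokine receptor stem followed by a digit, with the exception of Ccl19, Ccl22, Cxcl13 and Ccr7. They make up 54 of the 22923 distinct symbols listed for each library, with 21 CC ligands, 12 CXC ligands, Cx3cl1 and Xcl1, and 19 receptors. The symbol rule uses no measured value, although the set was proposed with earlier results of these data known. Of the 54 genes, 24 reached 1 FPKM (fragments scaled to transcript length and library size) in at least 3 libraries and were tested, namely 17 ligands and 7 receptors. Another 26 had a value above 0 in some library but stayed below that filter, and 4 (Ccl26, Ccl21c, Cxcl15 and the joint entry of Ccl27b and Gm13306) were listed at 0 in all 12 libraries.

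The study sequenced RNA from the proximal hind limb muscle of male FVB mice (FVB/N in the study's methods) at 22 weeks of age, to learn how the muscle transcriptome responds to loss of αB-crystallin (Cryab) and HspB2 (Hspb2) and to diet. There were 4 groups of 3 libraries, WT on normal chow, KO on normal chow, WT on high fat diet and KO on high fat diet. The KO mice lacked both small heat shock protein genes throughout the body, so that losses of Cryab and of Hspb2 cannot be told apart, and the libraries of the WT mice, littermates of the KO mice, carry the word flox in their titles. Genotype was taken from the titles, since the separate genotype label contradicts the title in 6 libraries. Cryab was 412 to 837 FPKM in the 6 libraries titled as WT and 0.845 to 1.75 FPKM in the 6 titled as KO, so every library stood with its title.

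Chemokines bind G protein-coupled receptors on leukocytes, and the gradient they form tells the cell where to go. Some, such as Cxcl12 and Cxcl14, are made by resting tissue, whereas others, such as Ccl2 and Cxcl10, are switched on by inflammatory signals and call in monocytes or T cells. Cx3cl1 (fractalkine) is made as a membrane-anchored protein and is shed from the cell surface by proteases. In skeletal muscle, chemokines bring monocytes and macrophages to damaged fibres, and resident macrophages are themselves a source of several CC ligands.

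Libraries differed in their content of other cell types, and these values stand beside the results they touch. In 3 chow libraries (WT chow 2, KO chow 1 and KO chow 3) the summed level of 6 B cell markers was 50.5 to 57.8 FPKM, against 0.256 to 5.86 FPKM in the other 9, and the summed level of 6 T cell markers was 33.1 to 36.1 FPKM against 1.57 to 4.91 FPKM. The 6 neutrophil markers found summed to 1041, 112 and 405 FPKM in the WT libraries on high fat diet and to 2.14 to 120 FPKM elsewhere. Skeletal muscle markers were abundant in every library, at 33351 to 79021 FPKM in sum, although Myh4 was listed at 0 in all 12 and Acta1 at 0 in WT chow 1 and KO high fat 2. The number of reads was unknown, and the step between low values gave relative depths of 0.993 to 1.35, the highest being those of KO chow 1 and KO chow 3. In bulk muscle, fewer cells of a type and less RNA per cell cannot be told apart.

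The sequences shown here are the promoters of the 5 genes that the genotype results turn on, each covering 250 bases before to 50 bases after the annotated transcription start in RefSeq (GRCm38.p6), read 5′ to 3′ on the strand of the gene. Capitals mark matches, on either strand, to a TATA box (TATAAA), a kappaB-type motif (GGG, any 5 bases, then CC) or an interferon-response-type motif (GAAA, any 2 bases, then GAAA). Cx3cl1 lies at chr8:94771930-94772229 (plus strand), Ccl6 at chr11:83593038-83593337 (minus), Ccl9 at chr11:83578587-83578886 (minus), Ccl8 at chr11:82114935-82115234 (plus) and Cxcl10 at chr5:92348840-92349139 (minus).
Cx3cl1: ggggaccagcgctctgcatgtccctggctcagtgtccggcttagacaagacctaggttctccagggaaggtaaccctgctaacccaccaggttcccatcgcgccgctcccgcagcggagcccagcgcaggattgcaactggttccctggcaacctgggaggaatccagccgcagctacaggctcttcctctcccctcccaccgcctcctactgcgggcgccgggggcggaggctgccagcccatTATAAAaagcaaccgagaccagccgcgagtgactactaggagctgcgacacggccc
Ccl6: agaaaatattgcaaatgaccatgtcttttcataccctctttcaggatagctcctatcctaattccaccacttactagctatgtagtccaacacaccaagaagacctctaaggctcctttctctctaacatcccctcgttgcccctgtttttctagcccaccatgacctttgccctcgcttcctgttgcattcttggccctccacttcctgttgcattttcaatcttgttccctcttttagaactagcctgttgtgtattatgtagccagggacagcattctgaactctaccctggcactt
Ccl9: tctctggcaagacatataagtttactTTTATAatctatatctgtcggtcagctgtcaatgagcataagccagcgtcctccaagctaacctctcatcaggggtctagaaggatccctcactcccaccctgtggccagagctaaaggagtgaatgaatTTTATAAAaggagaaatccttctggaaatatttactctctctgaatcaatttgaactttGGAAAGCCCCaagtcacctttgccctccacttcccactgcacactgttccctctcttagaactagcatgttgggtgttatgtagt
Ccl8: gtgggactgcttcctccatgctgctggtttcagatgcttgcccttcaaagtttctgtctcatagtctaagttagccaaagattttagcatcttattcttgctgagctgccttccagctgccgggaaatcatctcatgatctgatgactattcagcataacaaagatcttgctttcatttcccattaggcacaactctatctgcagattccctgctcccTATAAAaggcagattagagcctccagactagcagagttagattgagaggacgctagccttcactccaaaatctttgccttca
Cxcl10: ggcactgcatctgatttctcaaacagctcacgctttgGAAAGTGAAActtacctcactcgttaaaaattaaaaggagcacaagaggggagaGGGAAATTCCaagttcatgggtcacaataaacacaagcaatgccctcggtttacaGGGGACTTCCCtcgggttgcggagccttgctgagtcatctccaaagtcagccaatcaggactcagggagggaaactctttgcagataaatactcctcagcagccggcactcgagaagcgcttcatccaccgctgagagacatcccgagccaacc

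The Cx3cl1 promoter was the richest of the 5 in G and C, at 64.7%, and held 19 CpG dinucleotides, whereas Ccl6, Ccl9 and Ccl8 had 45.3%, 43.7% and 44.7% and 2 CpG each. Its TATAAA run occupied bases 245 to 250 of the window, directly before the annotated start, and that of Ccl8 bases 219 to 224. Cxcl10 held 3 kappaB-type matches, of which the last 2 overlap, and 1 interferon-response-type match, and none of the motifs was found in Ccl6, while Ccl9 held 3 TATAAA matches, of which 2 overlap, and 1 kappaB-type match. Among all 27025 genes with a promoter entry, 15.7% held TATAAA, 53.5% the kappaB-type motif and 3.99% the interferon-response-type motif. Of the 38 chemokine and receptor genes with an entry, 34.2% (13 genes), 57.9% (22) and 5.26% (2) did. A match describes the letters only and is not a bound site, and these motifs can overlap each other.

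The genes also sit together in the genome. In the GENCODE M21 annotation of GRCm38, 52 of the 54 could be placed, with 13 on chromosome 11, 12 on chromosome 9 and 10 on chromosome 5. Ccl2, Ccl7, Ccl11, Ccl12, Ccl8 and Ccl1 fell within chr11:82035571-82305690, a span of 270 kb. Ccl5, Ccl9, Ccl6, Ccl3 and Ccl4 fell within chr11:83525778-83664683, 139 kb long, where Ccl9 (83572919 to 83578636) and Ccl6 (83587882 to 83593087) are direct neighbours on the minus strand. The CXCR3 ligands Cxcl9, Cxcl10 and Cxcl11 shared a 44 kb stretch of chromosome 5, and 8 receptor genes including Ccr2 and Cxcr6 shared 469 kb of chromosome 9. Cx3cl1, at chr8:94772009-94782427 on the plus strand, had Ccl17 as its nearest neighbour in the set, 40 kb from end to end.

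Ligands made by resting tissue were the most abundant transcripts of the set. By mean FPKM over the 12 libraries, the order was Cxcl12 (57.3), Cxcl14 (49.9), Ccl11 (26.0), Cxcr7 (20.7), Ccl8 (20.4), Ccl6 (18.6), Ccl27a (11.7) and Ccl5 (7.43). Ccl5 owed its place to 3 libraries, since its median was 1.28 FPKM, below those of Cxcr4, Ccl9, Ccl24 and Ccl25. Cxcl12 and Cxcl14 overlapped across libraries, as did Ccl11, Cxcr7, Ccl8 and Ccl6. Altogether 10 of the 54 genes reached 1 FPKM in every library, and the 5 highest held 58.5% to 76.6% of the summed FPKM of the set. That sum was 176 to 267 FPKM in the WT libraries and 245 to 411 FPKM in the KO libraries.

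**Figure D1:**
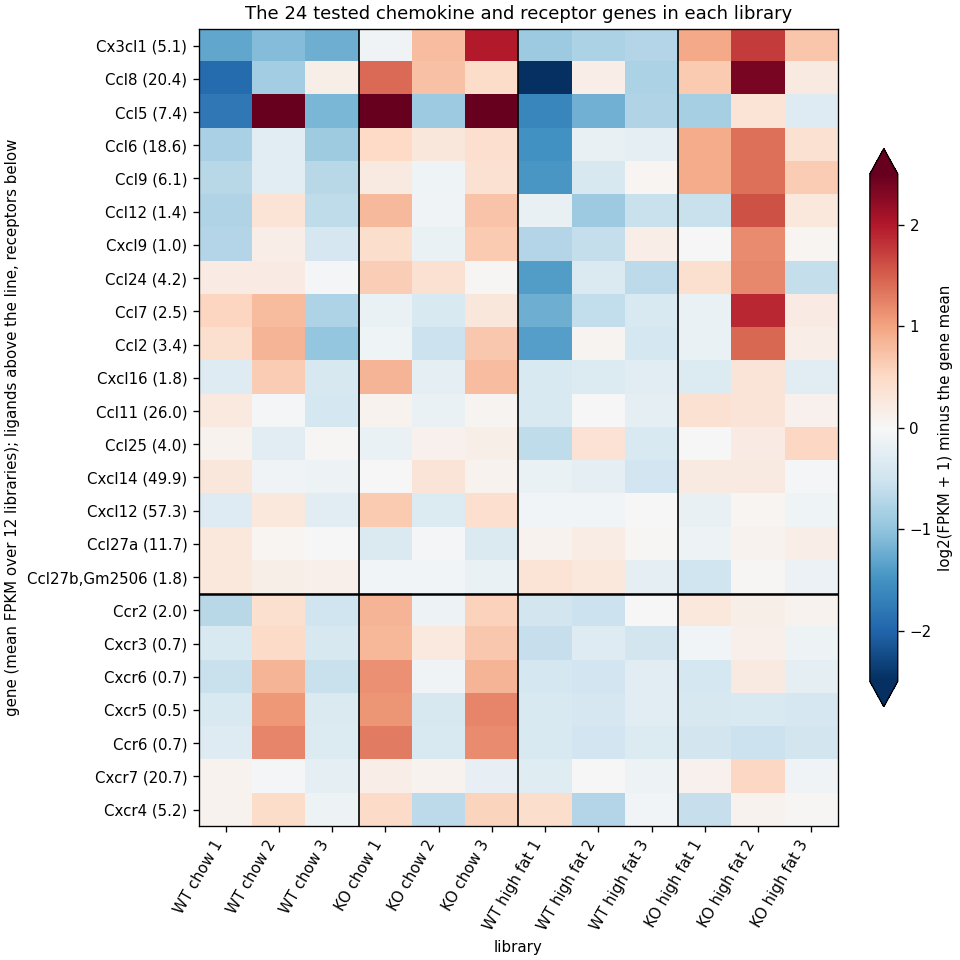
Log2(FPKM + 1) of the 24 tested genes (rows, ligands above the line and receptors below it, with the mean FPKM in brackets) in each of the 12 libraries (columns), minus the mean of the gene over the libraries. Red is above and blue below that mean, the darkest shades also hold values past the ends of the scale, and the Ccl6 row is red in all 6 KO libraries and the Cx3cl1 row in all but KO chow 1, which lies near its mean, while Ccl5, Ccr6, Cxcr5 and Cxcr6 are red in WT chow 2, KO chow 1 and KO chow 3.

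The comparison of KO with WT muscle, averaged over the diets, addressed how these genes differed between the genotypes. Cx3cl1, Ccl6 and Ccl9 were higher in KO muscle, by 7.23, 2.57 and 2.61 times in mean FPKM, and no gene of the set was lower past the threshold. These were 3 of 24 genes (12.5%) with an adjusted p under 0.05 in limma, against 0.862% of all 11945 genes tested. At an unadjusted p under 0.05 there were 13 genes against 26.5% of all genes, with 11 higher (13.1% of all genes) and 2 lower in KO (13.4%). The difference was above 0 for 21 of the 24 genes (44.4% of all genes), and its median was 0.49 on the log2(FPKM + 1) scale, against -0.02 over all genes. Because 1 was added before taking logs, the scale compresses differences between low values. Ccr6, Cxcr3, Cxcr5 and Cxcr6 passed the filter only through WT chow 2, KO chow 1 and KO chow 3. Ccl5, Ccl12 and Cxcl9 reached 1 FPKM in fewer than 3 WT libraries and so passed the filter only with KO libraries. Counts over the 24 genes, here and within each diet, can therefore lean toward KO, and nothing is read from them against those shares.

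Cx3cl1 showed the clearest difference. In WT muscle the chow libraries had 0.823, 1.10 and 0.921 FPKM and the high fat libraries 1.38, 1.59 and 1.69 FPKM. In KO muscle the chow libraries had 3.22, 6.61 and 16.6 FPKM and the high fat libraries 7.60, 14.0 and 6.23 FPKM. Each KO library was above each WT library, and the KO libraries also differed among themselves more than the WT libraries did. The means were 1.25 ± 0.357 FPKM in WT and 9.05 ± 5.13 FPKM in KO (SD, n = 6 each), and the difference was 2.01 ± 0.29 (SE) on the log2(FPKM + 1) scale (adjusted p = 0.0186, limma). Without WT chow 1 it was 1.99 (adjusted p = 0.0595) and without KO high fat 2 it was 1.86 (adjusted p = 0.0517). It stayed past the threshold when each of the other 10 libraries was left out.

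Ccl6 (also called C10), a CC ligand made by macrophages and other myeloid cells, was 8.67, 13.2 and 8.21 FPKM in WT on chow and 4.95, 14.0 and 13.5 FPKM in WT on high fat diet. The KO chow libraries had 23.1, 19.8 and 21.9 FPKM and the KO high fat libraries 31.5, 43.0 and 21.3 FPKM. The genotypes did not overlap. The means were 10.4 ± 3.70 and 26.8 ± 8.95 FPKM (SD, n = 6 each), with a difference of 1.30 ± 0.24 (SE, adjusted p = 0.0455, limma). When WT chow 1, WT chow 3, KO chow 1, KO chow 3, KO high fat 1 or KO high fat 2 was left out, the difference was 1.18 to 1.30 with adjusted p-values of 0.0832 to 0.126.

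Ccl9, the gene next to Ccl6 and likewise a ligand of the receptor Ccr1, was 2.86, 4.17 and 2.85 FPKM in WT on chow and 1.28, 3.74 and 5.40 FPKM in WT on high fat diet. The KO chow libraries had 6.28, 4.77 and 7.09 FPKM and the KO high fat libraries 10.9, 15.2 and 8.61 FPKM. The highest WT library on high fat diet was above the lowest KO library on chow, so the genotypes overlapped when diets were mixed but not within a diet. The difference was 1.15 ± 0.23 (SE, adjusted p = 0.0498, limma), at the edge of the threshold, and the adjusted p was 0.0519 to 0.0885 with median-of-ratios size factors, a mean filter, robust moderation, a pseudocount of 0.1, the replicate block or no filter. It passed in 4 of the 12 fits that left out 1 library. It missed without WT chow 1, WT chow 3, WT high fat 2, KO chow 1, KO chow 3 or any of the 3 KO high fat libraries, at 1.05 to 1.24 with adjusted p-values of 0.0518 to 0.131.

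The number of genes past the threshold moved with single libraries as well. It was 0 without WT chow 1 or without KO high fat 2. It was 1 without WT chow 3, KO chow 1, KO chow 3 or KO high fat 1, and 2 without WT high fat 2 or KO high fat 3. It was 4 without WT high fat 3, which added the joint entry of Ccl27b and Gm2506 in the lower direction, 5 without WT chow 2, which added Ccr2 and Cxcr3, and 6 without KO chow 2, which added Ccr2, Cxcr3 and, lower, Ccl27a. Calls over all 11945 genes moved likewise, from 103 with every library to 491, 336 and 1208 in these 3 fits, and to 10 without WT chow 1 and 17 without KO high fat 2.

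Ccl8, a monocyte attractant, differed by 1.95 ± 0.53 (SE) but missed the threshold (adjusted p = 0.0722, limma). It was 2.88, 7.09 and 15.2 FPKM in WT on chow, 1.48, 15.6 and 7.55 FPKM in WT on high fat diet, 38.4, 23.4 and 19.2 FPKM in KO on chow, and 22.1, 75.7 and 16.1 FPKM in KO on high fat diet. Every KO library exceeded every WT library, although the lowest KO library (16.1 FPKM) and the highest WT library (15.6 FPKM) were close. The means were 8.30 ± 5.98 FPKM in WT and 32.5 ± 22.5 FPKM in KO (SD, n = 6 each).

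**Figure D2:**
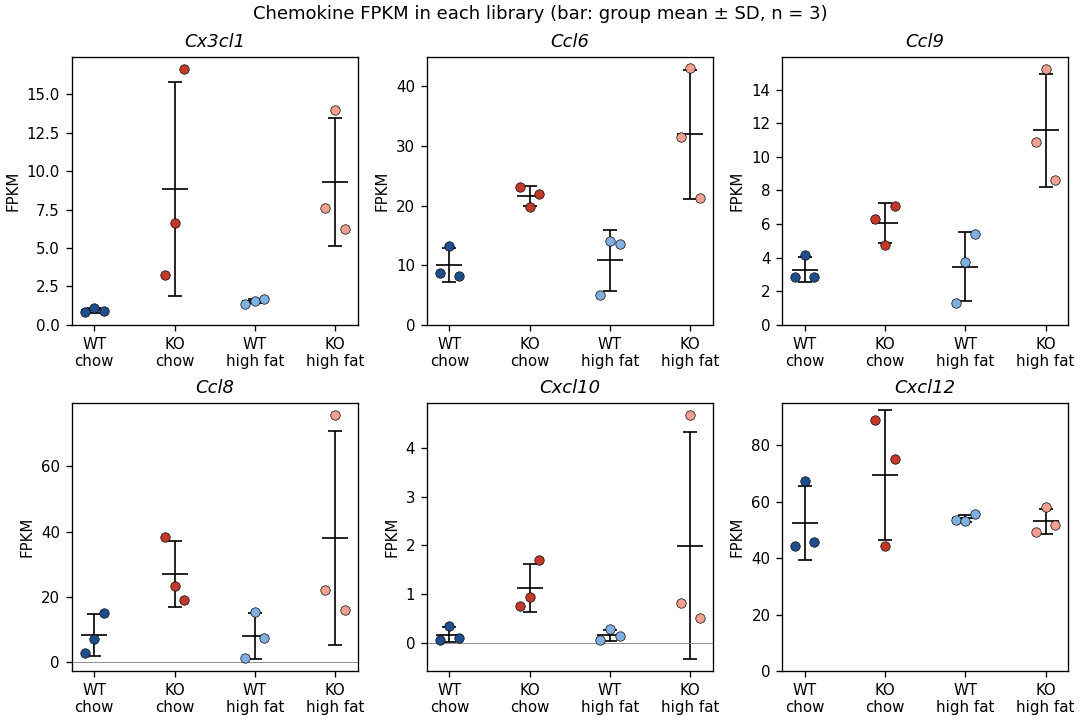
FPKM of 6 ligands in each library (points) by group, with the group mean (long bar) and SD (whiskers, n = 3). Cx3cl1, Ccl6, Ccl8 and Cxcl10 have no WT point at or above a KO point, Ccl9 overlaps between WT on high fat diet and KO on chow, and Cxcl12 overlaps throughout.

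Counted over ranges, Cx3cl1, Ccl6 and Ccl8 were the tested genes whose 6 KO libraries all lay above the 6 WT libraries, 3 of 24 (12.5%) against 1.72% of all genes tested, and none of the 24 lay wholly below (0.996%). Among all genes with a value above 0 in any library, Cxcl10 joined them, making 4 of 50 (8%) against 1.38%. Cxcl10, the interferon-inducible ligand of Cxcr3, stayed below the filter. It was 0.0565, 0.351 and 0.105 FPKM in WT on chow, 0.748, 0.943 and 1.69 FPKM in KO on chow, 0.0551, 0.279 and 0.143 FPKM in WT on high fat diet, and 0.814, 4.67 and 0.502 FPKM in KO on high fat diet. KO high fat 2 was the highest library for Cxcl10 as it was for Ccl8, Ccl6 and Ccl9. With no filter on low values the difference was 0.98 (adjusted p = 0.123, limma).

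As a group, the CC ligands of monocytes and macrophages (9 listed, 7 tested) held 2 of the 3 genes past the threshold (0.862% of all genes), 4 with an unadjusted p under 0.05 (26.5%), and 7 with a higher mean in KO (44.4%), with a median difference of 1.15 (-0.02 over all genes). Ccl5 and Ccl12 passed the filter only with KO libraries, so these counts and the median can lean toward KO. Nothing is read from them against the shares over all genes. The summed level of the 9 ligands was 9.67 to 58.0 FPKM in WT and 53.2 to 165 FPKM in KO, so the genotypes overlapped. Without Ccl5, which was high only in the 3 chow libraries rich in lymphocyte markers, it was 9.40 to 37.8 FPKM and 52.1 to 161 FPKM. Ccl5 was left out after the values were seen. Ccl8 and Ccl6, described above, had the highest means of the group, so this sum is not separate support for a shift of the whole group. Within the group, Ccl2, the main ligand of Ccr2, was 0.463 to 5.82 FPKM in WT and 1.63 to 9.25 FPKM in KO and overlapped between the genotypes (0.49 ± 0.39 SE, adjusted p = 0.437, limma). Its neighbour Ccl7 had a difference of 0.55 ± 0.37 (adjusted p = 0.350) and Ccl12 of 0.91 ± 0.35 (adjusted p = 0.134), and KO high fat 2 was the highest library for Ccl2, Ccl7 and Ccl12 alike. The ligands of eosinophils, Ccl11 and Ccl24, had differences of 0.28 ± 0.12 (adjusted p = 0.163) and 0.68 ± 0.27 (adjusted p = 0.148).

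Markers of macrophages moved with the same comparison. All 6 markers found (Emr1, Cd68, Csf1r, Mrc1, Cd163 and Lyz2) were higher in KO on average, each with an unadjusted p under 0.05, and Emr1 passed the threshold (0.89, adjusted p = 0.0418, limma). Their summed level was 98.5 to 209 FPKM in WT and 158 to 335 FPKM in KO, highest in KO high fat 2. With the mean log2 level of these markers as a covariate, the difference was 0.12 ± 0.13 (SE) for Ccl6, 0.07 ± 0.16 for Ccl9, 0.02 ± 0.69 for Ccl8 and 1.59 ± 0.54 for Cx3cl1, all with an adjusted p of 0.998. These markers themselves differed between the genotypes, so genotype and macrophage level cannot be told apart in this fit, which was chosen after the values were seen.

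**Figure D3:**
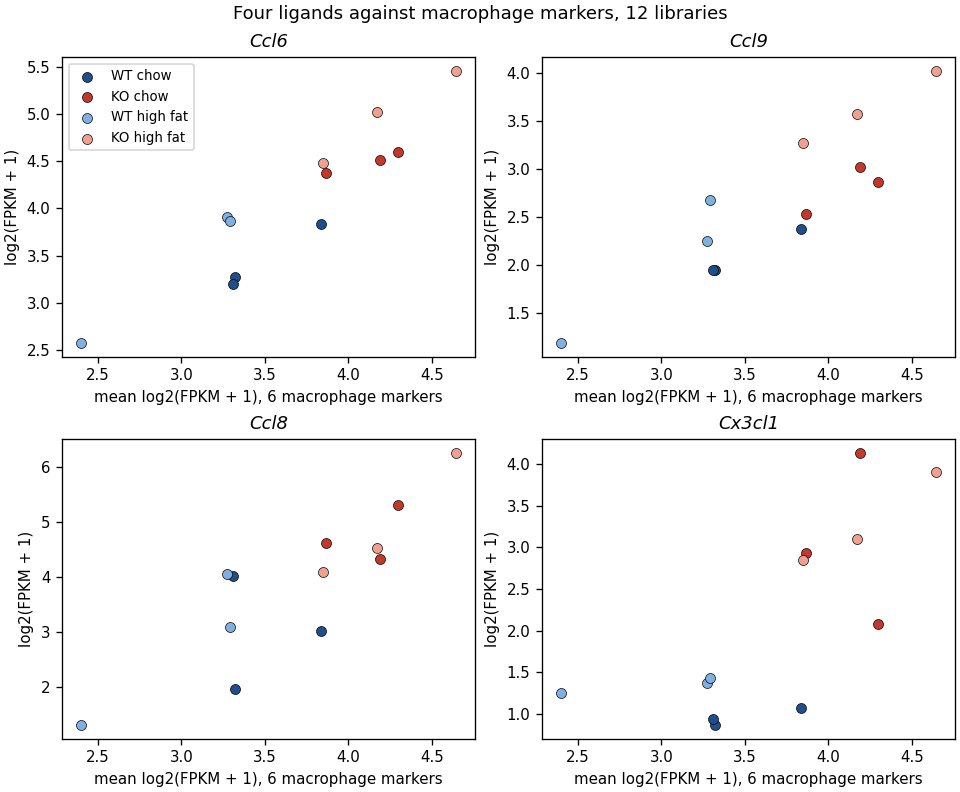
Log2(FPKM + 1) of Ccl6, Ccl9, Ccl8 and Cx3cl1 (vertical axes) against the mean log2(FPKM + 1) of 6 macrophage markers (horizontal axes), 1 point per library, coloured by group. Ccl6 and Ccl9 are lowest in WT high fat 1, where the marker mean is lowest, and highest in KO high fat 2, where it is highest. With the 2 diets of a genotype mixed, neither gene climbs steadily between these ends. Within single groups, Ccl6 rises in the order of the marker mean in all but WT on high fat diet. Ccl9 does so in all but KO on chow. A link between markers and ligands was not tested. Cx3cl1 is low in all 6 WT libraries, WT chow 2 (209 FPKM of summed markers) included.

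Adipocyte markers (Adipoq, Plin1, Lep and Cidec) also moved with genotype, summing to 3.13 to 270 FPKM in WT and 238 to 517 FPKM in KO, the lowest in WT high fat 1. With their mean as a covariate the difference was 2.03 ± 0.39 for Cx3cl1 (adjusted p = 0.153), 0.88 ± 0.23 for Ccl6 (adjusted p = 0.382), 0.70 ± 0.19 for Ccl9 (adjusted p = 0.422) and 1.12 ± 0.54 for Ccl8 (adjusted p = 0.646, limma). The part of these markers in the differences was not tested further. The markers of endothelium, a known site of Cx3cl1 synthesis (Pecam1, Cdh5, Kdr and Tek), summed to 78.9 to 96.7 FPKM in WT and 69.9 to 87.6 FPKM in KO. Fibroblast markers summed to 443 to 715 FPKM in WT and 572 to 856 FPKM in KO. Without the 3 chow libraries rich in lymphocyte markers, the difference of Cx3cl1 was 1.98 (adjusted p = 0.0182), of Ccl6 1.34 (adjusted p = 0.320) and of Ccl9 1.08 (adjusted p = 0.350).

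Genotype was then compared within each diet. On normal chow none of the 24 genes passed the threshold, against 0.0586% of all genes, and 6 had an unadjusted p under 0.05 (16.7% of all genes). Cx3cl1 had the smallest p (2.09 ± 0.42 SE, adjusted p = 0.195, limma), and without KO chow 1 it passed (2.57, adjusted p = 0.0323). The KO libraries lay wholly above the WT libraries for 4 genes (Cx3cl1, Ccl6, Ccl8 and Ccl9), against 8.15% of all genes, and wholly below for 2 (10.2%). The latter were the skin-type ligand Ccl27a and the joint entry of Ccl27b and Gm2506, near-identical copies between which reads may have been split. Ccl27a was 11.7 to 14.2 FPKM in WT on chow and 8.77 to 11.4 FPKM in KO on chow (-0.36 ± 0.12, adjusted p = 0.277), and on high fat diet it was 11.8 to 13.4 FPKM in WT and 10.6 to 13.1 FPKM in KO.

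On high fat diet again none of the 24 genes passed the threshold, against 0.109% of all genes, and 8 had an unadjusted p under 0.05 (16.2% of all genes), all higher in KO (9.79% of all genes). The lowest adjusted p-values were those of Ccl9 (1.58 ± 0.33 SE, adjusted p = 0.0688), Cx3cl1 (1.94 ± 0.42, adjusted p = 0.0751) and Ccl6 (1.54 ± 0.34, adjusted p = 0.0857, limma). With lymphocyte markers as a covariate those 3 genes passed, at adjusted p-values of 0.0402, 0.0464 and 0.0464, in a fit that called 296 of all 11945 genes in place of 13. Without the 3 chow libraries rich in lymphocyte markers, which leaves the high fat libraries as they are and alters only the shared spread, Cx3cl1 passed (adjusted p = 0.0340). Ccl9 passed without WT high fat 3 (1.90, adjusted p = 0.0337) and Cx3cl1 without KO chow 3 (1.94, adjusted p = 0.0236).

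Ranges on high fat diet did not overlap for 9 of the 24 genes (37.5%), all higher in KO, against 13% of all genes higher and 10.7% lower. Cxcl14, which is made by many resting tissues, was 43.8, 41.8 and 35.1 FPKM in WT and 57.6, 58.2 and 47.8 FPKM in KO on this diet, a shift of small size and small spread (0.43 ± 0.14 SE, adjusted p = 0.166, limma). Ccl11 (eotaxin), which attracts eosinophils, was 19.3, 25.9 and 21.3 FPKM in WT and 33.8, 32.4 and 27.7 FPKM in KO (0.48 ± 0.17, adjusted p = 0.186). On chow both genes overlapped between the genotypes.

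**Figure D4:**
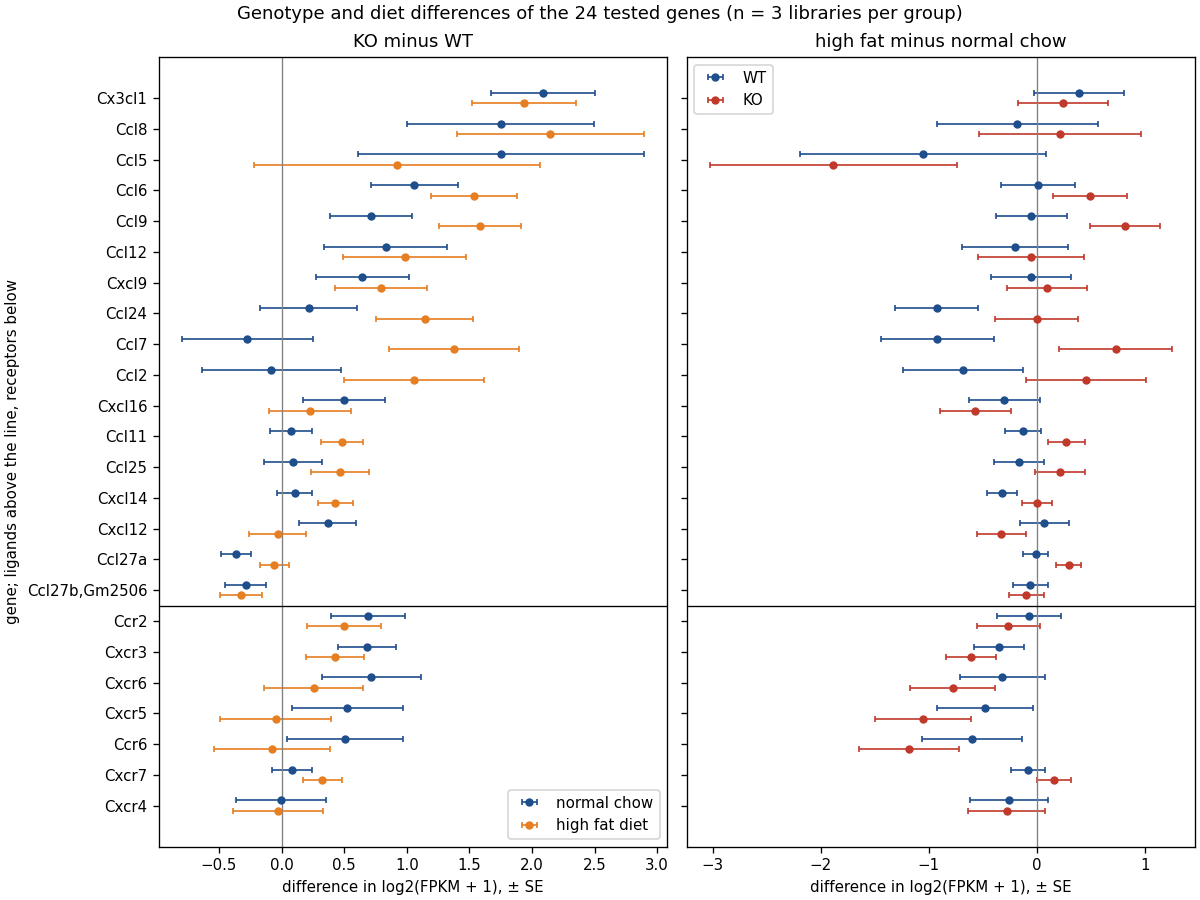
Difference in log2(FPKM + 1) ± SE for the 24 tested genes, KO minus WT on each diet (left) and high fat minus normal chow in each genotype (right), from groups of 3 libraries. Cx3cl1, Ccl8 and Ccl6 lie to the right of 0 on both diets in the left panel, while in the right panel the KO points of Ccl5, Ccr6 and Cxcr5 lie farthest to the left.

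The comparison of high fat diet with chow gave no gene of the set past the threshold in either genotype. In WT muscle this was 0 of 24, against 0.1% of all genes, and 2 had an unadjusted p under 0.05 (8.12% of all genes), both lower (3.7%). Ccl24, an eosinophil ligand made by macrophages, was 4.43, 4.45 and 3.54 FPKM in the chow libraries and 0.786, 2.68 and 1.97 FPKM in the high fat libraries (-0.93 ± 0.39 SE, adjusted p = 0.541, limma). Cxcl14 was 60.3, 46.7 and 45.1 FPKM in the chow libraries against 43.8, 41.8 and 35.1 FPKM with high fat diet (-0.32 ± 0.14, adjusted p = 0.586). For these genes and Ccr6 the high fat libraries lay wholly below the chow libraries (3 of 24, against 6.88% of all genes), and for Cx3cl1 wholly above (0.39 ± 0.42, against 6.2%). Macrophage markers had a median difference of -0.57 in the same comparison and neutrophil markers of 3.87.

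In KO muscle it was 0 of 24 as well, with 0% of all genes, and 5 had an unadjusted p under 0.05 (11.3% of all genes). Ccl9 and Ccl11 were wholly higher on high fat diet (2 of 24, against 10.7% of all genes), with differences of 0.82 ± 0.33 (adjusted p = 0.431) and 0.28 ± 0.17 (adjusted p = 0.506, limma). Cxcr3 and Ccr6 were wholly lower (2 of 24; 6.14% of all genes), with -0.61 ± 0.23 and -1.18 ± 0.47 (adjusted p = 0.431 each). Averaged over the genotypes, again none passed (0.0586% of all genes), and 3 genes had an unadjusted p under 0.05 (13.9% of all genes), the lymphocyte receptor genes Cxcr3, Ccr6 and Cxcr5, all lower (5.94%). These 3 receptors reached 1 FPKM only in WT chow 2, KO chow 1 and KO chow 3 and so passed the filter through chow libraries, and nothing is read from their counts against those shares. With macrophage markers as a covariate, Ccl6 (0.50 ± 0.07) and Ccl9 (0.61 ± 0.10) were higher on high fat diet averaged over the genotypes, with adjusted p-values of 0.0286 and 0.0341 in limma. That fit was chosen after the values were seen, and calls over all 11945 genes went from 7 to 26 in it. The markers themselves had a median difference of -0.20 between the diets, so diet and macrophage level cannot be told apart in this fit.

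The difference between the diet effects in KO and in WT was tested directly as an interaction. None of the 24 genes passed, with 0% of all genes, and Ccl7 alone had an unadjusted p under 0.05 (6.25% of all genes). Ccl7, a monocyte ligand of Ccr2, was 3.32, 4.15 and 0.754 FPKM in WT on chow, 0.285, 0.944 and 1.31 FPKM in WT on high fat diet, 1.65, 1.29 and 2.64 FPKM in KO on chow, and 1.65, 10.1 and 2.44 FPKM in KO on high fat diet. Its interaction was 1.65 ± 0.74 (SE, adjusted p = 0.790, limma), with KO high fat 2 far above the other libraries. For Ccl9 the interaction was 0.87 ± 0.46 (adjusted p = 0.849) and for Cx3cl1 -0.15 ± 0.59 (adjusted p = 0.977).

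Among the receptors, Cxcr7, the atypical receptor that removes Cxcl12, was 16.4 to 29.7 FPKM over the 12 libraries, and Cxcr4, through which Cxcl12 signals, was 2.58 to 7.79 FPKM. Cxcl12 itself averaged 53.3 ± 8.30 FPKM in WT and 61.2 ± 17.3 FPKM in KO (SD, n = 6 each), a difference of 0.17 ± 0.16 (adjusted p = 0.513, limma), and that of Cxcr4 was -0.02 ± 0.25 (adjusted p = 0.972). Ccr2, which brings monocytes into tissue, was 0.787, 2.79 and 1.04 FPKM in WT on chow, 4.18, 1.62 and 3.26 FPKM in KO on chow, 1.09, 0.987 and 1.85 FPKM in WT on high fat diet, and 2.46, 2.18 and 2.04 FPKM in KO on high fat diet. Averaged over the diets it differed by 0.59 ± 0.21 (adjusted p = 0.117). Cx3cr1, the receptor of Cx3cl1, was below the filter at 0.175 to 0.560 FPKM, with means of 0.242 ± 0.0696 in WT and 0.325 ± 0.158 in KO (SD, n = 6 each).

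Ccl5, a ligand made by activated T cells, and the lymphocyte receptors were high in the 3 chow libraries rich in T and B cell markers. In those libraries Ccl5 was 21.3 FPKM (WT chow 2), 31.2 FPKM (KO chow 1) and 24.9 FPKM (KO chow 3), against 0.140 to 3.98 FPKM in the other 9. Ccr6 was 2.38, 2.55 and 2.28 FPKM in them and at most 0.159 FPKM elsewhere, and Cxcr5, which guides B cells into follicles, was 1.91, 1.96 and 2.20 FPKM and at most 0.135 FPKM elsewhere. Among the 50 genes of the set with a value above 0, all 3 libraries exceeded all of the other 9 for 15 (30%), against 7.58% of all such genes. Those that passed the filter were Ccl5, Cxcl12, Cxcl16, Ccr2, Ccr6, Cxcr3, Cxcr4, Cxcr5 and Cxcr6, of which Ccr6, Cxcr3, Cxcr5 and Cxcr6 passed through these 3 libraries alone. The libraries were picked out by their lymphocyte markers and not by any label, so these values are a description with no test. Cxcl16, Cxcr5 and Cxcr6 are named here after their values were seen.

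**Figure D5:**
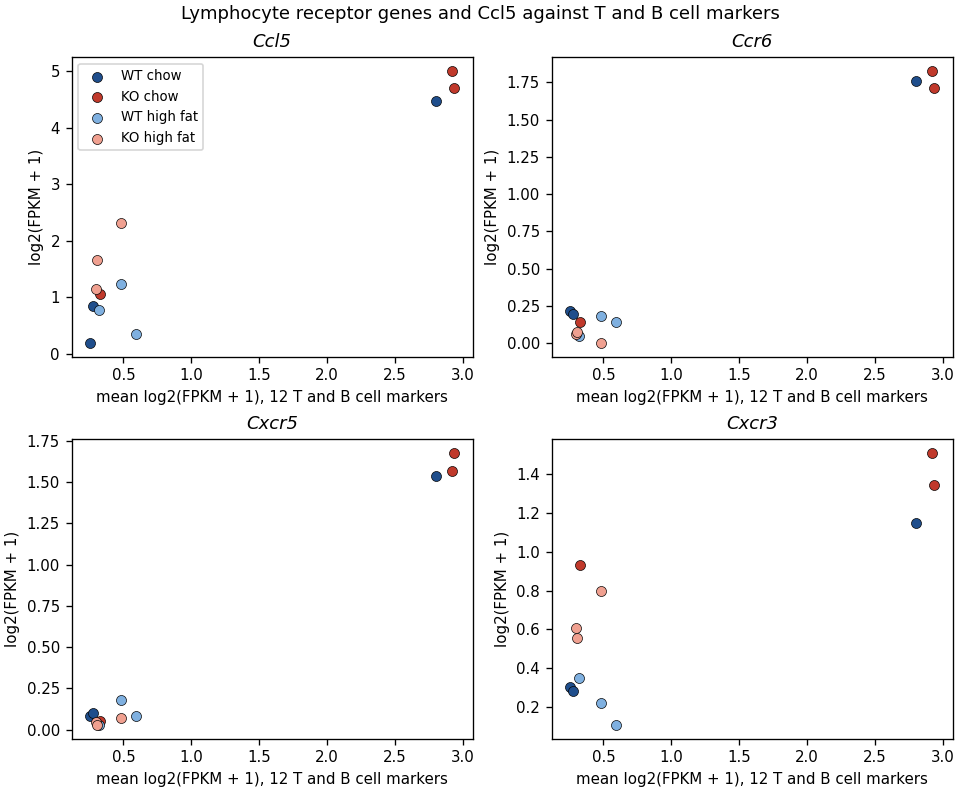
Log2(FPKM + 1) of Ccl5, Ccr6, Cxcr5 and Cxcr3 (vertical axes) against the mean log2(FPKM + 1) of 12 T and B cell markers (horizontal axes), 1 point per library, coloured by group. WT chow 2, KO chow 1 and KO chow 3 stand apart at the upper right of each panel, and among the other 9 libraries Cxcr3 is higher in the 4 from KO than in the 5 from WT.

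Diet differences of these genes in KO muscle were smaller in size without those libraries, in a fit chosen after the values were seen. The cause was not tested. In KO muscle the difference between high fat diet and chow was -1.88 for Ccl5, -1.05 for Cxcr5 and -0.78 for Cxcr6, and without the 3 libraries it was 0.64, -0.01 and -0.05. That of Ccr6 went from -1.18 to -0.10 and that of Cxcr3 from -0.61 to -0.28. In that fit KO on chow is a single library, whose spread is taken to be that of the other groups.

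Cxcr3, the receptor of Cxcl9, Cxcl10 and Cxcl11 on T cells, was 0.231, 1.22 and 0.215 FPKM in WT on chow, 1.85, 0.905 and 1.54 FPKM in KO on chow, 0.0759, 0.272 and 0.165 FPKM in WT on high fat diet, and 0.524, 0.738 and 0.467 FPKM in KO on high fat diet. KO exceeded WT on high fat diet in every library, and on chow WT chow 2 lay above KO chow 2. Averaged over the diets the difference was 0.56 ± 0.16 (SE, adjusted p = 0.0826, limma). It was 0.45 ± 0.08 with lymphocyte markers as a covariate (adjusted p = 0.0396) and 0.53 ± 0.10 without the 3 libraries (adjusted p = 0.170). The 3 ligands together summed to 0.258 to 1.69 FPKM in WT and 1.62 to 8.17 FPKM in KO. Of the ligands, Cxcl9 averaged 0.462 ± 0.443 and 1.45 ± 0.927 FPKM in WT and KO, and Cxcl10 0.165 ± 0.123 and 1.56 ± 1.58 FPKM. Cxcl11 averaged 0.364 ± 0.180 FPKM in WT and 0.330 ± 0.154 FPKM in KO (SD, n = 6 each).

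Of the 26 genes with values below the filter, none passed the threshold in any of the 7 comparisons when all genes were tested with no filter on low values, and 1 to 5 had an unadjusted p under 0.05 in each (limma). Over all 6644 genes below the filter, 1 to 10 passed in those fits and 6.14% to 10.4% had an unadjusted p under 0.05. For genotype averaged over the diets, Ccr1, the receptor of Ccl6 and Ccl9, averaged 0.362 ± 0.156 FPKM in WT and 0.787 ± 0.280 FPKM in KO (SD, n = 6 each) and missed the threshold (0.38, adjusted p = 0.0963, limma). Ccl17, a ligand of the chemokine receptor Ccr4, had a difference of 0.57 (adjusted p = 0.118, limma), and both genes are named after their values were seen. Ligands of the neutrophil receptor Cxcr2 (Cxcl1, Cxcl2, Cxcl3, Cxcl5 and Cxcl15) summed to at most 1.55 FPKM in any library, including the WT libraries on high fat diet, where neutrophil markers were highest.

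The wider chemokine pathway was followed through 6 further lists (signal relay, inducers, adhesion, cleavage, atypical and related receptors, and other ligands). The genes tested were 32 of signal relay, 6 inducers, 8 of adhesion, 6 of cleavage, 5 atypical and related receptors and 2 other ligands. For genotype averaged over the diets, 1 gene of all these lists passed the threshold, against 0.862% of all genes. That gene was Nfkb2 (0.79 ± 0.14 SE, adjusted p = 0.0418, limma), a subunit of the NF-kappaB factors that act on many chemokine promoters. A link between Nfkb2 and the genes of the set was not tested. It was 4.95, 8.02 and 5.41 FPKM in WT on chow, 10.6, 8.36 and 14.4 FPKM in KO on chow, 4.74, 4.73 and 5.38 FPKM in WT on high fat diet, and 9.52, 11.6 and 7.89 FPKM in KO on high fat diet. Its partner Relb (0.39 ± 0.10, adjusted p = 0.0666) and the adhesion molecule Icam1 (0.64 ± 0.15, adjusted p = 0.0593) missed the threshold, and both are named after their values were seen. In this comparison 13.1% of all genes had an unadjusted p under 0.05 and were higher, and 44.4% had a higher mean in KO. Among the inducers, 6 of 11 were tested and 6 had a higher mean in KO. Of 32 signal relay genes tested, none passed, 5 had an unadjusted p under 0.05, all higher, and 28 had a higher mean in KO (median 0.19). Of the 8 adhesion genes 3 had an unadjusted p under 0.05, all higher. So had 3 of the 6 proteases that cleave chemokines, 2 of the 5 atypical and related receptors tested and 1 of the other 2 ligands. The mean log2 level of signal relay was 2.85, 2.99 and 2.94 in WT chow 2, KO chow 1 and KO chow 3, rich in lymphocyte markers. It was 2.22 to 2.69 in the other libraries. The median difference between genotypes was 0.32 on chow and 0.14 on high fat diet for signal relay, and 0.71 and 0.17 for adhesion. The part of the 3 libraries in these counts was not tested. Adam10 and Adam17, the proteases known to shed Cx3cl1 and likewise named after the fact, were 7.72 to 11.7 FPKM and 6.50 to 8.99 FPKM over the 12 libraries. In the other 6 comparisons none of the pathway genes passed the threshold.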

How the data were processed

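Paired-end RNA sequencing of 12 mouse muscle libraries, 3 per group, was run by the authors (Illumina HiSeq2000). The authors deposited 1 FPKM value per gene entry and library, with some symbols repeated (23179 entries, 22923 distinct symbols) and no pooling of replicates. The files do not name the unit, which was read from the values and from the submitters' processing notes. Those notes list TopHat2 2.0.8b, Cuffdiff 2.1.1 and the mm10 build without giving their roles. Read depth is unknown, so no counting error can be given.

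Libraries were grouped by title. Where a symbol was repeated, its entry of highest mean was used. Genes with at least 1 FPKM in at least 3 libraries (11945) were tested on log2(FPKM + 1) with limma 3.58.1 (R 4.3.3), using a trended prior variance, in 7 contrasts of the 4 groups (8 residual degrees of freedom). The Benjamini-Hochberg adjustment ran over all tested genes, and 0.05 was the threshold. The script was tested on simulated data. Labels do not say how the mice of a group were kept apart, and p-values measure the spread between these libraries. Positions are from GENCODE M21 and promoters from RefSeq, both of GRCm38, and 38 of the 54 genes had a promoter entry. Python 3.11.15 (pandas 2.3.3, NumPy 2.4.6, SciPy 1.17.1, matplotlib 3.10.9) was used for the remaining values and the plots.

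The gene set, marker lists and pathway lists were chosen with earlier results of these data known. Genes named are Cryab and Hspb2, those past the threshold in any contrast, the 8 highest means, up to 5 per direction with the smallest p among those with no overlap in each of the 4 contrasts of 2 groups, up to 4 in the interaction, any gene with over 80% of its sum in 1 library that reaches 1 FPKM (none did), the receptors Cxcr4, Ccr2, Cx3cr1 and Cxcr3 with their ligands, and pathway genes past the threshold. Alternatives were a pseudocount of 0.1, other filters, a replicate block, fits to the compared groups alone, genotype taken from its label, median-of-ratios size factors, quantile normalization, a lymphocyte marker covariate, robust moderation and leaving out each library. Macrophage and adipocyte covariates and the omission of 3 libraries were chosen after seeing the data. Results for 1 gene of the set are not reported here.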

Additional observations from a re-analysis of the deposited data

How the results depend on the processing

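The 23 named genes of the set gave 640 alternative values over 26 pairs of gene and comparison, of which 584 kept their direction and side of the threshold, 32 lost the threshold, 7 gained it and 17 changed sign. For genotype averaged over the diets, the 3 genes past the threshold became 1 with no filter on low values, 1 with the replicate block, and 0 to 6 when 1 library was left out. They became 0 with genotype by label, with the macrophage covariate or with the adipocyte covariate. Calls over all genes fell likewise, from 103 to 42 with no filter and 40 with the replicate block. They were 0 with genotype by label, 4 with the macrophage covariate and 7 with the adipocyte covariate. On high fat diet the 0 genes became 3 with the lymphocyte covariate, where calls over all genes went from 13 to 296. Leaving out 1 library gave 0 to 1 there and 0 to 1 on normal chow. For diet averaged over the genotypes the macrophage covariate gave 2 genes in place of 0, where calls over all genes went from 7 to 26.

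With genotype by label, which contradicts the titles and the Cryab values, the sign changed for Ccl11 (interaction -0.49, diet in KO -0.094, genotype on high fat diet -0.49), Ccl24 (diet in WT 0.70), Ccl6 (genotype averaged -0.38, on high fat diet -1.54), Ccl7 (interaction -0.87), Ccl9 (interaction -1.83, diet in KO -0.35, genotype averaged -0.54, on high fat diet -1.45), Cx3cl1 (genotype averaged -0.52, on high fat diet -1.78) and Cxcl14 (diet in WT 0.19, genotype on high fat diet -0.46). With the macrophage covariate it changed for Ccl6 on high fat diet (-0.019) and Ccl9 on normal chow (-0.014). The cause of the lost and gained calls was not tested.

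With the replicate block, the adjusted p from limma for genotype averaged over the diets was 0.0300 for Cx3cl1, 0.0624 for Ccl6 and 0.0776 for Ccl9. Deviations of same-numbered libraries correlated at -0.81 to -0.27 on normal chow and at -0.07 to 0.02 on high fat diet between genotypes, at -0.09 to 0.39 between diets in WT and at -0.30 to -0.11 between diets in KO. Not every correlation was over 0.1 in any comparison and no label ties the numbers, so the libraries share a number and are not pairs. Values under 1 FPKM are limited by a depth that is unknown.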
